A study of Mus musculus with 4 samples.

Results

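Genes of protein folding in the endoplasmic reticulum (ER) and of the unfolded protein response were compared between mouse lung fibroblasts with the KrasD12 allele and wild-type (WT) fibroblasts. 44 genes were listed by function, and 42 of them had an array row that the platform annotation pairs with exactly 1 gene symbol, out of 19938 genes tested. A gene with several such rows was read from the one that was brightest on average. Fkbp10 and Sec61g had no row of that kind and were not tested. The 42 genes comprised 5 sensors and factors of the response, 12 chaperones and their partners, 7 disulphide isomerases and oxidases, 9 genes of ER-associated degradation, 6 of the translocon, and 3 prolyl isomerases or collagen chaperones.

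The cells were untreated primary fibroblasts grown out of collagenase-digested lungs of mice aged 3 to 4 weeks, and the growth protocol calls the culture myofibroblasts. Samples A and B of KrasD12, a genotype that the design text also calls SKY, carried line number 493, and samples A and B of WT carried line number 494. With 1 line per genotype, genotype and line cannot be told apart. Nothing in the labels says that A and B were separate cultures. The p-values thus rest only on the spread between A and B, shared over all genes, which may be technical. How the allele was switched on in these mice is not given in the sources used here.

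Secreted and membrane proteins enter the ER through the Sec61 channel, are bound there by the Hsp70 chaperone BiP (gene Hspa5) and by lectin chaperones, and receive their disulphide bonds from protein disulphide isomerases. Proteins that fail to fold are returned to the cytosol for destruction by the proteasome, a route called ER-associated degradation (ERAD). When unfolded protein builds up, the sensors Ire1 (Ern1), Perk (Eif2ak3) and Atf6 start the unfolded protein response, in which Atf6 and the spliced form of Xbp1 switch on chaperone, isomerase and ERAD genes. Fibroblasts, which secrete collagen and other matrix proteins, depend heavily on this machinery.

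Of the 42 genes, 22 fell and 3 rose in KrasD12, and the other 17 were not called. A gene was said to fall or rise only where limma's test gave an adjusted p under 0.05 in the same direction on the deposited log2 values and again after quantile normalization of the 4 columns. Over all genes tested, 11.5% fell and 22.4% rose by that rule, against 52.4% and 7.14% of the ER genes. The ER genes were bright, and 25 of them had a mean above 9 on the log2 scale. Among those 25, 15 fell and 0 rose, while 24.3% of all genes with a mean above 9 fell and 24.8% rose. On the deposited values alone 25 were lower and 5 higher, where 11.9% and 50.1% of all genes were. After quantile normalization alone 24 were lower and 3 higher, where 24.4% and 22.5% of all genes were. The median difference of the 42 genes, KrasD12 minus WT, was -0.28 as deposited and -0.29 with quantile normalization, against 0.26 and -0.004 over all genes.

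Most of the falls were moderate. Manf alone changed by at least 2-fold, a size that 1.28% of all genes passed downward. Both KrasD12 samples lay below both WT samples for 31 of the 42 genes (73.8%), which held for 18.7% of all genes and for 41.3% of the genes with a mean above 9. Both lay above for 7 genes, where the share of all genes was 64.3%. In the remaining 4 genes, Syvn1, Edem1, Sec61b and Serpinh1, the samples of the groups overlapped. The size of the gap between A and B was at most 0.20 in KrasD12 and 0.22 in WT, both for Derl3. All 22 genes stayed lower, and all 3 stayed higher, on both scalings when any single sample was left out. The calls did not all hold: 15 of the 22 falls were still called on both scalings without KrasD12 A, 11 without KrasD12 B, and 0 without WT A or WT B. Without KrasD12 A the calls of Creld2, Pdia5, Sel1l and Edem3 were lost on the deposited values and those of Hsp90b1, Ssr1 and Ssr3 with quantile normalization. Without KrasD12 B those of Atf6, Dnajb11, Creld2, Pdia4, Pdia5, Sel1l, Edem3, Ssr1 and Ssr2 were lost on the deposited values, and those of Hsp90b1 and Ssr3 with quantile normalization. Without WT A or WT B limma called 0 of all 19938 genes on the deposited values, with smallest adjusted p of 0.0552 and 0.053, while 25 and 27 of the ER genes had an unadjusted p under 0.05. With quantile normalization 12 of the 22 falls were called without WT A and 14 without WT B.

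**Figure D1:**
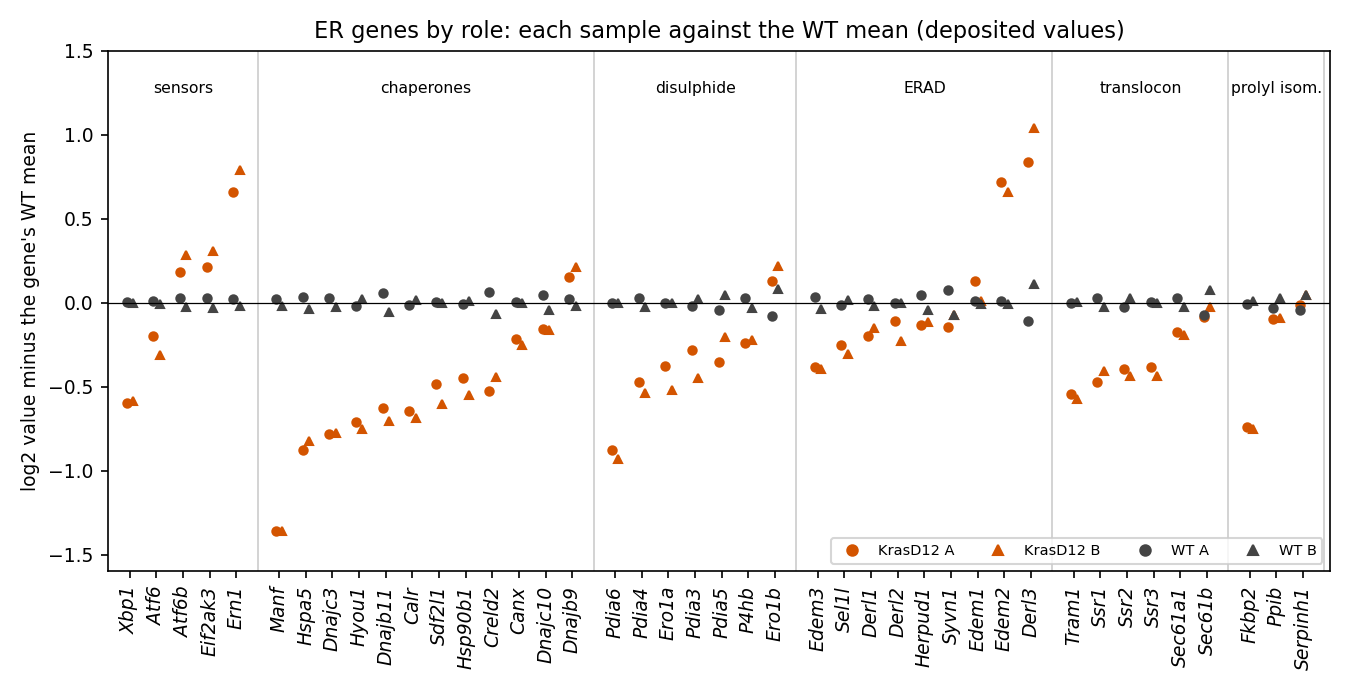
The 42 genes stand along the horizontal axis, grouped by role, and the vertical axis gives the deposited log2 value of each of the 4 samples minus the gene's WT mean, with KrasD12 in orange, WT in grey, circles for A and triangles for B. For 31 genes both KrasD12 points lie below both WT points, and Manf shows the widest gap between the groups.

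The deposited columns were not on 1 common distribution. Their medians were 6.24 and 6.26 in KrasD12 and 5.90 and 5.91 in WT, and samples of a group correlated at 0.997 and 0.998 over the genes, against 0.972 to 0.974 between groups. The median difference of all genes was 0.39 for genes with a mean between 5 and 6 and -0.15 for those between 11 and 12 on the deposited values. It was 0.07 between 9 and 10, and only the bins above 10 had a median below 0. After quantile normalization those medians were 0.01 and -0.02. All 10 fibroblast markers lay above the dim level of 5.15, the 95th percentile of olfactory and vomeronasal receptor rows, in both groups, and their summed level was 15.2 in KrasD12 and 15.3 in WT on the log2 scale. Of these markers 3 fell (Col1a1 by 0.60, Pdgfrb by 0.50 and Thy1 by 0.31) and 2 rose (Pdgfra and Fn1). The summed level of 6 smooth muscle and pericyte markers was 10.7 to 10.8 in KrasD12 and 12.1 to 12.2 in WT, of which 2 fell and 1 rose, with Acta2 at 10.43 and 10.22 against 12.03 and 11.96. The part of these marker differences in the ER genes was not tested, and in bulk RNA fewer cells of a type and less RNA per cell cannot be told apart. The summed level of 11 epithelial markers was 9.18 to 9.30 in KrasD12 and 8.78 to 8.80 in WT, that of 7 endothelial markers 8.22 to 8.27 and 7.88 to 8.0, that of 8 immune markers 8.42 and 8.42 to 8.46, and that of 4 mesothelial markers 7.87 to 7.94 and 7.78 to 7.88. Of the epithelial markers 9 lay above the dim level in KrasD12 and 6 in WT, and Sftpc and Sftpb rose, while Epcam and Scgb1a1 were below it in both. Of the endothelial markers 3 (Tek, Vwf and Cldn5) lay above it in both groups, 0 were called on both scalings, and Pecam1, Cdh5, Kdr and Emcn were below it. Of the immune markers 3 lay above it in KrasD12 and 5 in WT, 3 fell (Cd14, Csf1r and Lyz2, the last by 1.48) and Adgre1 rose, while Ptprc, Adgre1 and Itgam were below it in both. Of the mesothelial markers 3 lay above it in both groups and 0 were called on both scalings.

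**Figure D2:**
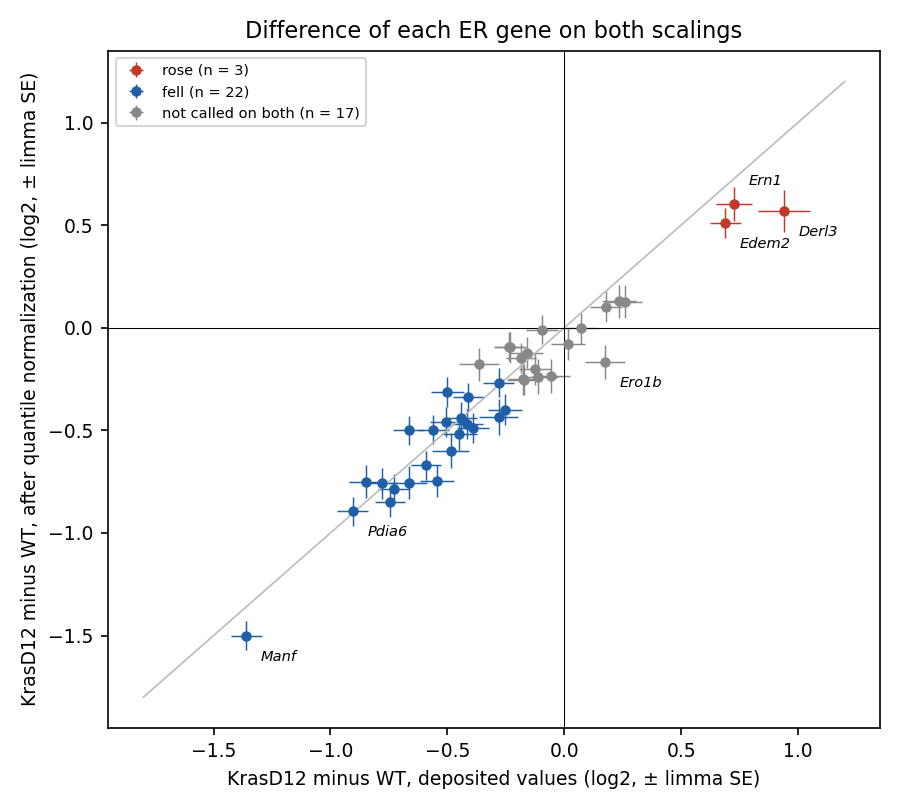
The difference of each of the 42 genes (KrasD12 minus WT, log2) on the deposited values is plotted against the difference after quantile normalization, with limma standard errors and the line of equality. The 22 genes that fell lie in the lower left with Manf at its end, the 3 that rose, Ern1, Derl3 and Edem2, lie in the upper right, and Ero1b is positive on the deposited values but negative after quantile normalization.

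Promoters of genes that answer ER stress are known for the ER stress element (ERSE), a bipartite site bound by NF-Y at its CCAAT end and by Atf6 or Xbp1 at its CCACG end. RefSeq promoter windows on build GRCm38.p6, running from 250 bases before to 50 bases after the annotated start, were found for 35 of the 42 genes. The letters CCAAT, then any 9 bases, then CCACG were searched on both strands. They occurred in 10 of the 35 (28.6%), against 0.137% of the 27025 mouse genes with a window, and all 10 lay before the start. The higher share describes reference sequence of genes listed for this function and is not a result of the samples. The upstream bases of the 3 windows below are shown because they belong to the BiP gene, to the only gene with a pair of elements, and to the only gene with an element that rose. Capitals mark the element, which begins with CGTGG where it lies on the opposite strand.
Hspa5, chr2:34771840-34772089, plus strand: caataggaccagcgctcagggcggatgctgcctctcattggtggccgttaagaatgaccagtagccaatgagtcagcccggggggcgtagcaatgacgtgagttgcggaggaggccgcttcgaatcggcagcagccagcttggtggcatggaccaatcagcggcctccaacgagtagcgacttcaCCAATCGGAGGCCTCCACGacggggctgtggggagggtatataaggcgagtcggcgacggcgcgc
Hsp90b1, chr10:86705445-86705694, minus strand: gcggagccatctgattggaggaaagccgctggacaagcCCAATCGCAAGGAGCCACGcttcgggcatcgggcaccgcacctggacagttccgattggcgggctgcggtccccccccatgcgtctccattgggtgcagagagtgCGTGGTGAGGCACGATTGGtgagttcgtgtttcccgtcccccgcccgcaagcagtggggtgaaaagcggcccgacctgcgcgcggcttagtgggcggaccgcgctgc
Derl3, chr10:75893148-75893397, plus strand: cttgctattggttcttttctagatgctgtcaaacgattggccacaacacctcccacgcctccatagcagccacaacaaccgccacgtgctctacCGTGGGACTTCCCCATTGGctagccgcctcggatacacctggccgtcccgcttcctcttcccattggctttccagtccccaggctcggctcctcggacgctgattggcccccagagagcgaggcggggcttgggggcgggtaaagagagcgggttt

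The element started 65 bases before the start in Hspa5, at 212 and 107 bases in Hsp90b1, and at 156 bases in Derl3. The other 7 genes with an ERSE are shown by the element alone, turned so that it reads from CCAAT to CCACG, to let the spacer between the fixed ends be compared.
Pdia6: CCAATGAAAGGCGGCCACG
Dnajc3: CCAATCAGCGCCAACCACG
Calr: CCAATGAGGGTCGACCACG
Creld2: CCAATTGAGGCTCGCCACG
Canx: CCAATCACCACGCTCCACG
Syvn1: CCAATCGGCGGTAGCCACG
Ero1b: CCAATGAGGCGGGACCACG

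Of the 10 genes with the element, 6 fell (Hspa5, Hsp90b1, Pdia6, Dnajc3, Calr and Creld2), Derl3 rose, and Canx, Syvn1 and Ero1b were not called. Their median difference was -0.49. Of the 25 genes with a window and no exact match to the ERSE letters, 11 fell and 2 rose, with a median of -0.23. These 25 include Herpud1 and Dnajb11, which held the shorter form described below. Of the 7 genes without a window (Atf6, Hyou1, Manf, Derl1, Sec61a1, Ssr2 and Tram1), 5 fell and 0 rose, with a median of -0.42. Falls were thus found with and without these letters. Over all 15614 tested genes with a window, 11.6% fell and 22.2% rose. The shorter ERSE-II, ATTGG and CCACG with any 1 base between them, occurred in Herpud1 as ATTGGGCCACG, starting 52 bases before the start, and in Dnajb11 as ATTGGCCCACG, 7 bases after it, against 0.0444% of all genes. The UPRE core TGACGTGG and the CRE TGACGTCA were in none of the 35, where 0.714% and 2.03% of all genes held them. The ATF4 composite element TGATGNAA was in Herpud1 (4.51% of all genes), and a CCAAT box, which every ERSE contains, was in 26 of the 35 (74.3%, against 41.1% of all genes). A match is a description of these letters in these windows and shows no binding.

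**Figure D3:**
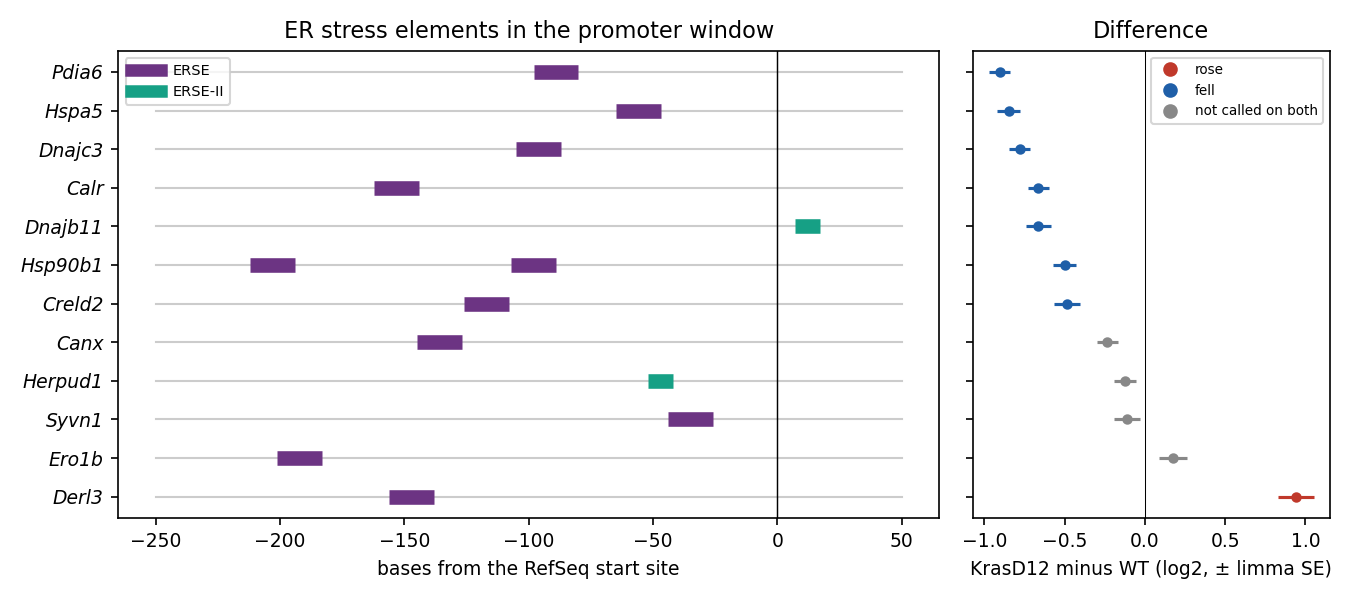
The left panel marks the position of each ERSE and ERSE-II in bases from the RefSeq start for the 12 genes that hold one, and the right panel gives each gene's difference (KrasD12 minus WT, log2, deposited values, with the limma standard error). Pdia6 and Hspa5, at the top, show the largest falls, and Derl3, at the bottom, is the only one that rose.

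The sensors did not move one way. Ern1, which encodes the kinase and endoribonuclease Ire1, rose, while Xbp1, whose RNA Ire1 splices, and Atf6 fell. The deposited values of Ern1 were 8.79 and 8.92 in KrasD12 and 8.15 and 8.11 in WT. That is a difference of 0.73 ± 0.08 (limma SE, n = 2 per group), or 1.65-fold, with a limma adjusted p of 0.00143. Both KrasD12 samples lay above both WT samples, and the difference after quantile normalization was 0.60. Xbp1 was at 8.89 and 8.90 in KrasD12 and at 9.49 and 9.48 in WT, the tightest replicates of the 5. It fell by 0.59 ± 0.06, or 1.51-fold, with a limma adjusted p of 0.00154, and by 0.67 after quantile normalization. The row gives 1 value for the gene and does not separate spliced from unspliced Xbp1 RNA.

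Atf6, the membrane-bound factor released by cleavage in the Golgi, was at 8.19 and 8.08 in KrasD12 and at 8.40 and 8.38 in WT. The fall of 0.26 ± 0.07 was small, with a limma adjusted p of 0.0282, and was not called without KrasD12 B. Its relative Atf6b was at 8.71 and 8.81 against 8.55 and 8.50. Eif2ak3, the Perk kinase that slows translation, was at 8.49 and 8.59 against 8.31 and 8.25. For both genes the KrasD12 samples lay above the WT samples and the deposited difference passed limma's test, 0.24 (adjusted p = 0.0363) for Atf6b and 0.26 (adjusted p = 0.0273) for Eif2ak3. After quantile normalization both differences were 0.13, with limma adjusted p of 0.234 and 0.23, and after centring each column on its median they were -0.11 and -0.09, so neither has a settled direction.

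Of the 12 chaperones and their partners, 9 fell (75.0%) and 0 rose, beside 11.5% and 22.4% of all genes, and the median difference was -0.61. Among the 9 with a mean above 9, 6 fell (66.7%), beside 24.3% of all genes that bright. Manf, a small ER protein that binds BiP and is secreted under stress, showed the largest fall of all 42 genes. It was at 7.75 in both KrasD12 samples and at 9.13 and 9.09 in WT. The difference was -1.36 ± 0.07 (limma SE, n = 2 per group), or 2.57-fold lower, with a limma adjusted p of 0.00033, and -1.50 after quantile normalization.

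Hspa5, which encodes BiP, was at 10.84 and 10.89 in KrasD12 and at 11.75 and 11.68 in WT. The groups lay far apart relative to A and B, and the difference was -0.85 ± 0.07, or 1.80-fold lower, with a limma adjusted p of 0.000839. The proteins that drive BiP's cycle fell with it in part. Hyou1, the large Hsp70 that exchanges nucleotide on BiP, was at 9.14 and 9.10 against 9.83 and 9.87, a fall of 0.73 ± 0.07. Dnajc3 (p58IPK), a J-domain co-chaperone, was at 10.06 and 10.07 against 10.87 and 10.82, a fall of 0.78 ± 0.07, and its second array row held identical values. Dnajb11 (ERdj3), another J-domain partner, was at 8.75 and 8.67 against 9.43 and 9.32 and fell by 0.67 ± 0.08. Its partner in a complex, Sdf2l1, was at 7.49 and 7.37 against 7.98 and 7.97, a fall of 0.55 ± 0.07.

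The other J-domain genes were not called. Dnajb9 (ERdj4), which represses Ire1 through BiP, was at 9.32 and 9.38 in KrasD12 and at 9.19 and 9.15 in WT. It was the only chaperone with both KrasD12 samples above both WT samples, but the difference of 0.18 ± 0.07 did not pass limma's test (adjusted p = 0.0651). The difference was 0.10 after quantile normalization, 0.12 after cyclic loess and -0.17 after centring. Dnajc10 (ERdj5), a J-domain protein that also reduces disulphide bonds, was at 10.32 and 10.31 against 10.52 and 10.43, a difference of -0.16 ± 0.07 with a limma adjusted p of 0.0964.

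Hsp90b1 (Grp94), the Hsp90 of the ER, was at 11.81 and 11.71 in KrasD12 and at 12.25 and 12.27 in WT, a fall of 0.50 ± 0.07. Calr, the soluble lectin chaperone calreticulin, was at 11.39 and 11.35 against 12.02 and 12.05 and fell by 0.67 ± 0.07. Canx, its membrane-bound relative calnexin, was at 11.72 and 11.68 against 11.94 and 11.93. The groups of Canx did not overlap, and its difference of -0.24 ± 0.07 passed limma's test on the deposited values (adjusted p = 0.0261) but was -0.09 after quantile normalization (adjusted p = 0.321). Creld2, a small stress-induced ER protein, was at 8.32 and 8.40 against 8.91 and 8.78 and fell by 0.49 ± 0.08, a call that was lost without KrasD12 A and without KrasD12 B.

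Of the 7 disulphide isomerases and oxidases, 4 fell (57.1%) and 0 rose, beside 11.5% and 22.4% of all genes. The median difference was -0.37. Among the 5 with a mean above 9, 3 fell and 0 rose, beside 24.3% and 24.8% of all genes that bright. Pdia6, an isomerase that also limits Ire1 signalling, had the largest fall of the group. Its values were 9.87 and 9.82 in KrasD12 and 10.75 in both WT samples. The difference was -0.91 ± 0.07 (limma SE, n = 2 per group), or 1.87-fold lower, with a limma adjusted p of 0.0007, and it was about the same after quantile normalization, at -0.90.

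Pdia4 (ERp72) was at 10.44 and 10.38 in KrasD12 and at 10.94 and 10.89 in WT, a fall of 0.51 ± 0.07. A second Pdia4 row, not used, went the other way at 5.50 and 5.32 against 4.91 and 4.86. That row's mean of 5.15 was at the dim level, and its deposited difference was 0.525. All genes with a mean between 5 and 6 had a median deposited difference of 0.39. Why the Pdia4 rows differ was not tested. Averaging both rows gave 0.01 and ended the call. Pdia5 was at 7.94 and 8.09 against 8.25 and 8.34, a fall of 0.28 ± 0.08 that was not called without either KrasD12 sample.

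The isomerases P4hb and Pdia3 were among the brightest rows and were not called on both scalings. P4hb, the classical protein disulphide isomerase and also a subunit of collagen prolyl 4-hydroxylase, was at 11.73 and 11.75 in KrasD12 and at 12.00 and 11.94 in WT. Pdia3 (ERp57), the partner of calnexin and calreticulin, was at 11.86 and 11.69 against 12.12 and 12.16. In both genes the groups did not overlap, and the deposited differences of -0.23 (limma adjusted p = 0.0302) and -0.37 (limma adjusted p = 0.0136) shrank to -0.10 and -0.18 after quantile normalization (limma adjusted p = 0.331 and 0.111). Ero1a, the oxidase that recharges the isomerases, was at 9.18 and 9.04 against 9.56 in both WT samples and fell by 0.45 ± 0.08. Its paralogue Ero1b was at 6.20 and 6.29 against 5.99 and 6.15, a difference of 0.18 ± 0.09 that was -0.17 after quantile normalization and passed the test on neither scale.

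Of the 9 ERAD genes, Derl3 and Edem2 rose, Sel1l and Edem3 fell, and 5 were not called, with a median difference of -0.13. The share that rose and the share that fell were each 22.2%, beside 22.4% of all genes that rose and 11.5% that fell. Among the 4 ERAD genes with a mean above 9, 1 fell (25.0%) and 0 rose. Of all genes that bright, 24.3% fell and 24.8% rose. Derl3, a derlin of the retrotranslocation complex, was at 5.94 and 6.14 in KrasD12 and at 4.99 and 5.21 in WT. The difference was 0.94 ± 0.11 (limma SE, n = 2 per group), or 1.92-fold, with a limma adjusted p of 0.00187, and 0.57 after quantile normalization. The WT mean of 5.10 was below the dim level, and the call was lost without KrasD12 A (adjusted p = 0.0554) and without KrasD12 B (adjusted p = 0.0704). Derl1 and Derl2 went slightly the other way, at -0.18 ± 0.07 and -0.17 ± 0.07 on the deposited values. They passed limma's test only after quantile normalization, at -0.25 for each (adjusted p = 0.0322 and 0.0332).

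The 3 Edem genes, lectin-like mannosidases that mark misfolded glycoproteins, differed from each other. Edem2, which makes the first cut, was at 8.28 and 8.22 in KrasD12 and at 7.57 and 7.55 in WT, a rise of 0.69 ± 0.07 with a limma adjusted p of 0.00119. Edem3 was at 8.66 and 8.65 against 9.08 and 9.01 and fell by 0.39 ± 0.07. Edem1 was at 9.56 and 9.44 against 9.44 and 9.42, overlapping groups with a difference of 0.07 ± 0.07. The differences among the 3 genes were not tested.

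Sel1l and Syvn1 encode the adaptor and the ubiquitin ligase (Hrd1) of one membrane complex. Sel1l was at 10.06 and 10.01 in KrasD12 and at 10.30 and 10.33 in WT, a fall of 0.28 ± 0.07 with a limma adjusted p of 0.0156. Syvn1 was at 8.37 and 8.44 against 8.59 and 8.44, so the groups met, and its difference was -0.11 ± 0.08. Herpud1, a stress-induced scaffold of the same complex, was at 9.22 and 9.24 against 9.40 and 9.31, a difference of -0.13 ± 0.07 that did not pass limma's test (adjusted p = 0.171).

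Of the 6 translocon genes, 4 fell (66.7%) and 0 rose, beside 11.5% and 22.4% of all genes, with a median difference of -0.41. Among the 5 with a mean above 9, 4 fell (80.0%), beside 24.3% of all genes that bright. The falls lay in the proteins that accompany the channel. Tram1, which helps nascent chains into the membrane, was at 10.49 and 10.46 in KrasD12 and at 11.03 and 11.04 in WT, a fall of 0.56 ± 0.07 (limma SE, n = 2 per group) with a limma adjusted p of 0.00177. Ssr1, Ssr2 and Ssr3, subunits of the translocon-associated protein complex, fell by 0.44, 0.42 and 0.41, each with non-overlapping groups. Their values in KrasD12 were 9.84 and 9.91, 9.43 and 9.39, and 10.73 and 10.68 in that order, and in WT 10.34 and 10.29, 9.80 and 9.85, and 11.12 and 11.11.

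The channel subunits themselves were not called. Sec61a1, the pore, was at 10.32 and 10.30 in KrasD12 and at 10.52 and 10.47 in WT, a difference of -0.19 ± 0.07 with a limma adjusted p of 0.0563. Sec61b was at 7.84 and 7.90 against 7.85 and 8.0. Its difference of -0.06 ± 0.08 was within the spread of the samples, and its other 2 rows gave 0.02 and -0.08.

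Among the prolyl isomerases and collagen chaperones, Fkbp2 fell and the others were not called. Fkbp2, a small FK506-binding isomerase of the ER lumen, was at 8.51 and 8.50 in KrasD12 and at 9.24 and 9.26 in WT, a fall of 0.75 ± 0.07 with a limma adjusted p of 0.000948. Serpinh1 (Hsp47), the collagen-specific chaperone, was at 8.78 and 8.84 against 8.75 and 8.84. It overlapped fully and differed by 0.02 ± 0.07. Ppib (cyclophilin B), which works with the collagen prolyl 3-hydroxylase complex, was at 10.98 and 10.99 against 11.05 and 11.11, a difference of -0.10 ± 0.07 with a limma adjusted p of 0.26.

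Neighbouring pathways were counted by the same rule and from the same fit, in which 11.5% of all genes fell and 22.4% rose. Of all genes with a mean above 9, 24.3% fell and 24.8% rose. Of 19 genes of the Perk and Atf4 arm, which serves amino acid supply and stress adaptation, 4 rose and 4 fell (21.1% each), with a median of 0.14 as deposited and -0.11 with quantile normalization. Psat1, of serine synthesis, was at 7.10 and 7.14 in KrasD12 and at 8.53 and 8.50 in WT and fell by 1.40 ± 0.07, and Asns, asparagine synthetase, fell by 0.58 ± 0.07. Ddit4 and Sesn2, inhibitors of mTORC1 signalling, rose by 0.64 ± 0.08 and 0.63 ± 0.08. Named for their place in this arm after their values were seen, Atf4 fell by 0.34 ± 0.08, and Ddit3 (CHOP) differed by 0.14 ± 0.09 with a limma adjusted p of 0.214.

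The other membrane-bound factors, listed with their proteases, held the widest range. Of 7 genes 3 rose (42.9%) and 2 fell (28.6%), with a median of 0.28 as deposited and -0.05 with quantile normalization. Creb3l1 (OASIS), a cleaved ER factor known for collagen secretion, was at 8.41 and 8.32 in KrasD12 and at 9.71 and 9.92 in WT. It fell by 1.45 ± 0.10, or 2.73-fold, with a limma adjusted p of 0.00059. Creb3 fell by 1.11 ± 0.07. Creb3l2 rose by 0.69 ± 0.07, and Creb3l4 rose by 1.08 ± 0.07 from WT values of 5.17 and 5.24, close to the dim level. Named as a protease of this list after its values were seen, Mbtps1 rose by 0.215 ± 0.064.

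Other lists hold genes that carry proteins into, through and out of the ER. Of 18 genes of signal recognition and cleavage 10 fell (55.6%) and 2 rose (11.1%), with a median of -0.29. The signal peptidase subunits Spcs1 and Spcs3 fell by 0.91 ± 0.07 and 0.68 ± 0.07, the translocon-associated Ssr4 fell by 0.61 ± 0.07, and Sec61a2, a second pore gene, rose by 0.60 ± 0.07. Of 20 genes of N-glycosylation and the lectin cycle 10 fell (50%) and 2 rose (10.0%), with a median of -0.29. Alg3 and Alg5, which build the lipid-linked sugar, fell by 0.87 ± 0.07 and 0.67 ± 0.09, and Ost4 and Magt1, of the oligosaccharyltransferase, fell by 0.76 ± 0.07 and 0.63 ± 0.07.

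Of 22 genes of COPII export and KDEL retrieval 7 fell (31.8%) and 0 rose. Among the 13 of them with a mean above 9, 4 fell (30.8%), near the 24.3% of all genes that bright. Kdelr3, a receptor that returns escaped ER chaperones from the Golgi, was at 7.58 and 7.63 in KrasD12 and at 8.90 and 8.96 in WT and fell by 1.33 ± 0.07, or 2.51-fold. The cargo receptor Surf4 fell by 0.84 ± 0.07, and the coat genes Sar1b and Sec23b fell by 0.75 ± 0.09 and 0.52 ± 0.07. Of 13 other thioredoxin-fold proteins 5 fell (38.5%) and 1 rose (7.69%). Tmx2, Txndc5 and Qsox1 fell by 0.55, 0.54 and 0.50, and Pdia2 rose by 0.83 with both group means below the dim level. Of 5 other ER prolyl isomerases 2 fell (40.0%) and 0 rose, Fkbp14 by 1.36 ± 0.09 and Fkbp7 by 0.87 ± 0.09.

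Of the 18 further ERAD genes 5 rose (27.8%) and 3 fell (16.7%), beside 22.4% and 11.5% of all genes, with a median of 0.04 as deposited and -0.06 with quantile normalization. Ube2j2, an ER ubiquitin-conjugating enzyme, and Bag6, which holds extracted clients in solution, rose by 0.87 ± 0.12 and 0.52 ± 0.07. Selenos, which links p97 to the derlins, fell by 0.93 ± 0.09. Ufd1, a p97 cofactor, fell by 0.445 ± 0.083.

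Among chaperones outside the ER, too, falls outnumbered rises. Of 23 cytosolic heat shock and chaperonin genes 12 fell (52.2%) and 1 rose (4.35%), with a median of -0.32. Cryab, a small heat shock protein abundant in muscle-like cells, was at 8.39 and 8.49 in KrasD12 and at 10.08 in both WT samples and fell by 1.64 ± 0.07. Dnajb4, Hsph1 and Dnaja1 fell by 0.92 ± 0.07, 0.84 ± 0.09 and 0.58 ± 0.09. Of 8 mitochondrial chaperones 3 fell (37.5%) and 0 rose, among them Hspe1 by 0.67 ± 0.08, Hspd1 by 0.39 ± 0.07 and Grpel1 by 0.32 ± 0.08. The lists were not tested against the ER genes or against each other.

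**Figure D4:**
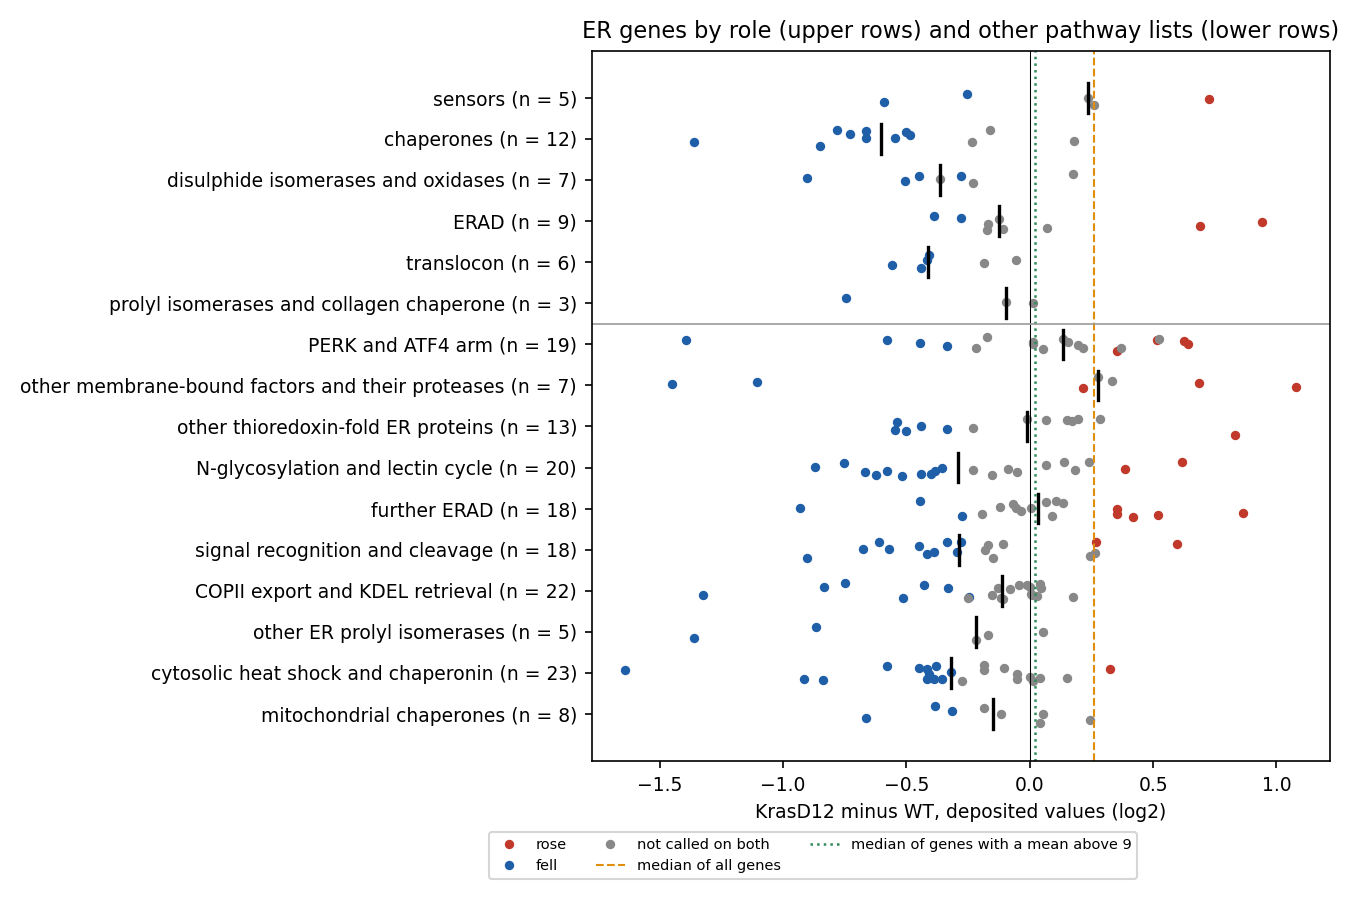
Each point is a gene's difference (KrasD12 minus WT, log2, deposited values), with the ER genes by role in the upper rows and the other pathway lists in the lower rows, a black bar at each median and vertical lines at the medians of all genes (0.26) and of genes with a mean above 9 (0.02). The medians of the sensors (0.24), the Perk and Atf4 arm (0.14) and the further ERAD genes (0.04) lie between the lines. That of the membrane-bound factors and their proteases (0.28) lies to the right of both, and those of all other rows lie to the left of both. With quantile normalization the median of the sensors is 0.13. Those of the Perk and Atf4 arm, the further ERAD genes and the membrane-bound factors with their proteases are -0.11, -0.06 and -0.05.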

How the data were processed

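The authors deposited 1 log2 expression value per array row and sample for 4 Affymetrix arrays. The unit was read from the values. The Transcriptome Analysis Console was used, per the submitters' processing notes. How it corrected background and normalized the arrays is not given in the sources used here. Of 28944 rows, 21789 had exactly 1 symbol in the platform annotation, and the highest-mean row of each gene left 19938 genes.

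Groups were taken from the genotype labels, with 2 samples each. Differences were fitted with limma 3.58.1 (lmFit and eBayes, R 4.3.3) over all genes, two-sided, with Benjamini-Hochberg adjustment at 0.05, once on the values as deposited and once with all rows quantile-normalized. The fit was tested on simulated data. The number of arrays limits the precision, with 2 residual degrees of freedom. Because eBayes shares the spread between A and B over genes, an SE is not the gene's own spread alone. Xbp1, for example, had a standard deviation of 0.007 in KrasD12 and in WT and an SE of 0.064. Alternatives were median centring, cyclic loess, a filter at the dim level (log2 5.15), trended and robust eBayes, the mean of a gene's rows, the replicate letter as a block, and each sample left out.

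Every ER gene with a row is named. Of each other list, up to 4 genes called on both scalings with the largest differences are named. The genes and lists were chosen with earlier results of these data known. Promoter letters were searched in RefSeq windows of GRCm38.p6, matched by symbol.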

Additional observations from a re-analysis of the deposited data

How the results depend on the processing

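All 22 falls and 3 rises were still called after median centring and cyclic loess, and with robust or trended eBayes and the dim filter. A call after quantile normalization was part of the rule itself, so that setting is no separate check of these genes. The genes higher on the deposited values numbered 5, and 3 under quantile normalization, centring, cyclic loess or the replicate block. With the replicate block 21 genes fell on both scalings, Atf6 being lost (adjusted p = 0.0522). The letters do not pair the samples, since A minus B correlated between groups at 0.0132 over all genes. Leaving out 1 sample gave 0 to 19 lower, 0 to 2 higher, 0 to 15 fallen and 0 to 2 risen genes, and a median of -0.31 to -0.27; the lone sample of a group was assumed to vary like the other group. Centring moved the median from -0.28 to -0.63 and the genes lower from 25 to 35. It lowered the difference of every gene in the table by the same amount, so this change is not particular to the ER genes. Signs turned for Ero1b (-0.17), Edem1 (-0.003) and Serpinh1 (-0.079) under quantile normalization; for Atf6b (-0.11), Eif2ak3 (-0.085), Dnajb9 (-0.17), Ero1b (-0.17), Edem1 (-0.28) and Serpinh1 (-0.33) under centring; for Ero1b (-0.18) and Serpinh1 (-0.089) under cyclic loess; for Pdia4 (0.01) with the mean of its rows; and, leaving out 1 sample, for Serpinh1 (from -0.03 to 0.06) and Sec61b (from -0.13 to 0.02). The cause was not tested.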

Other observations

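Sec61g, the small gamma subunit of the channel, lies only on 4 array rows that each carry 3 symbols, so its values cannot be assigned to 1 gene. KrasD12 was below WT in all 4 rows, by differences of -0.29, -0.30, -0.46 and -0.68 on the deposited log2 values. The row with the largest difference was at 7.80 and 7.83 in KrasD12 and at 8.49 in both WT samples.

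Beyond the 42 ER genes compared here, 11 tested genes held the ERSE letters in their promoter window: Acacb, Acnat2, Adcy3, Alg12, Calr4, Olfr59, Pan2, Ptgdr2, Spats2l, Tdrd9 and Zfp57. Absence from the 42 does not mean that a gene has no role in the ER. None of them fell on both scalings and 5 rose (Acnat2, Adcy3, Spats2l, Tdrd9 and Zfp57), or 45.5%. Of all tested genes with a window, 11.6% fell and 22.2% rose. The median of the 11 genes was 0.43 as deposited and 0.22 with quantile normalization, against 0.25 and -0.006 over all with a window. Acnat2, Calr4 and Olfr59 lay below the dim level in both groups, and Tdrd9 did in WT. For all genes with a mean between 4 and 5, the median deposited difference was 0.385. The 11 genes were collected by the letters alone and were not compared with the ER genes by a test.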
